A study of Homo sapiens with 6 samples.

Results

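The genes described here are 33 genes of autophagy and of the lysosome, taken by symbol from a count table of 54261 gene symbols: the receptors that carry cargo, the core machinery that builds the autophagosome, its transcriptional regulators, and lysosomal membrane and lumenal proteins, with cathepsins left out. Genes were listed by function, with earlier results of these data known. All 33 had a row in the table and all 33 passed the filter on low counts, among 15391 genes tested. The samples were 6 libraries of total RNA from PC9/GR, a line of human lung cancer cells. Among them, 3 came from cells given a control small interfering RNA (si-NC) and 3 from cells given one against MYLK-AS1 (si-MYLK-AS1), an antisense non-coding transcript named for the myosin light chain kinase gene MYLK. No other allele, agent or drug is named for either group, and 1 cell line stands for the disease in both. Levels are in CPM (reads of a gene rescaled to a common library size, after a correction for composition), and a gene was called higher or lower in the knockdown at an adjusted p below 0.05 by edgeR's quasi-likelihood test over all tested genes.

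Macroautophagy encloses cytoplasm in a double membrane and delivers it to the lysosome. The ULK1 kinase complex starts the process, a lipid kinase complex around BECN1 marks the membrane, and conjugation enzymes attach small ubiquitin-like proteins of the ATG8 family to it. Receptors such as SQSTM1 (also called p62) bind both ubiquitinated cargo and the ATG8 proteins, and the transcription factors TFEB and TFE3 drive lysosomal and autophagy genes when they enter the nucleus.

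Library totals ran from 7551303 to 11055408 reads. MYLK-AS1 had 16 to 20 reads in the control libraries and 0 to 5 in the knockdown libraries (log2 fold change -2.43, SE 0.60, adjusted p = 0.00326). Without knockdown replicate 1, which had 0 reads, the change was -1.74 (adjusted p = 0.0159, range 0.000331 to 0.0168 over the alternatives). The keratins KRT7, KRT8 and KRT18 had control means of 3993 to 4255 CPM, as epithelial cells have them, while the epithelial adhesion gene EPCAM had 1.28 to 1.67 CPM there and the lung lineage factor NKX2-1 0.222 to 0.366 CPM. PTPRC and CD3E, defining markers of leukocytes and T cells, had no read in any library. The summed level of the 9 epithelial markers was 11846 to 13869 CPM with si-NC and 7622 to 8227 CPM with si-MYLK-AS1, and of the 7 of them tested 5 fell and KRT19 rose. Fibroblast markers summed to 22.7 to 28.7 and 29.2 to 37.0 CPM, immune markers to 207 to 289 and 286 to 329 CPM, and endothelial markers to at most 1.00 CPM. Of the 2 fibroblast markers tested, COL1A1 did not pass (23.7 and 26.1 CPM) and the scarce LUM rose from 0.482 to 3.45 CPM (adjusted p = 0.000128). PDGFRB, not tested, had 0 to 2 reads in the control libraries and 7 to 12 in the knockdown libraries. Of the immune markers CD68 rose from 193 to 285 CPM and CD14 fell from 35.3 to 21.6 CPM. The part of these shifts in the results below was not tested. The labels do not say whether the libraries of a group came from separate cultures, so the p-values rest on a spread among samples that may be technical. In bulk RNA, fewer cells of a type and less RNA per cell cannot be told apart.

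In the knockdown, 10 of the 33 autophagy and lysosome genes were higher, 3 were lower and 20 did not pass the threshold. The 10 that rose were the receptors SQSTM1, TAX1BP1 and CALCOCO2, the ATG8 protein MAP1LC3B, the initiation scaffold RB1CC1, the conjugation genes ATG12 and ATG16L1, the cholesterol carrier NPC2 and the proton pump subunits ATP6V0D1 and ATP6V1H. The 3 that fell were the receptor NBR1 and the lysosomal membrane proteins LAMP1 and LAMP2. Among all tested genes 21.3% were higher, 20.7% were lower and 42% changed in either direction, against 30.3%, 9.09% and 39.4% of these 33, so the share that changed lay near that of all genes. The median log2 fold change of the 33 was 0.08, with a range from -0.72 to 1.37, and that of all tested genes was -0.00050. For 17 of the 33 every library of 1 group lay above every library of the other, which held for 52.2% of all tested genes. SQSTM1 was the sole gene of the 33 to pass with a change of at least 2-fold. Among all 15391 tested genes, 646 passed upward and 1131 downward at that size. By absolute log2 fold change SQSTM1 had rank 881 of all tested genes.

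**Figure D1:**
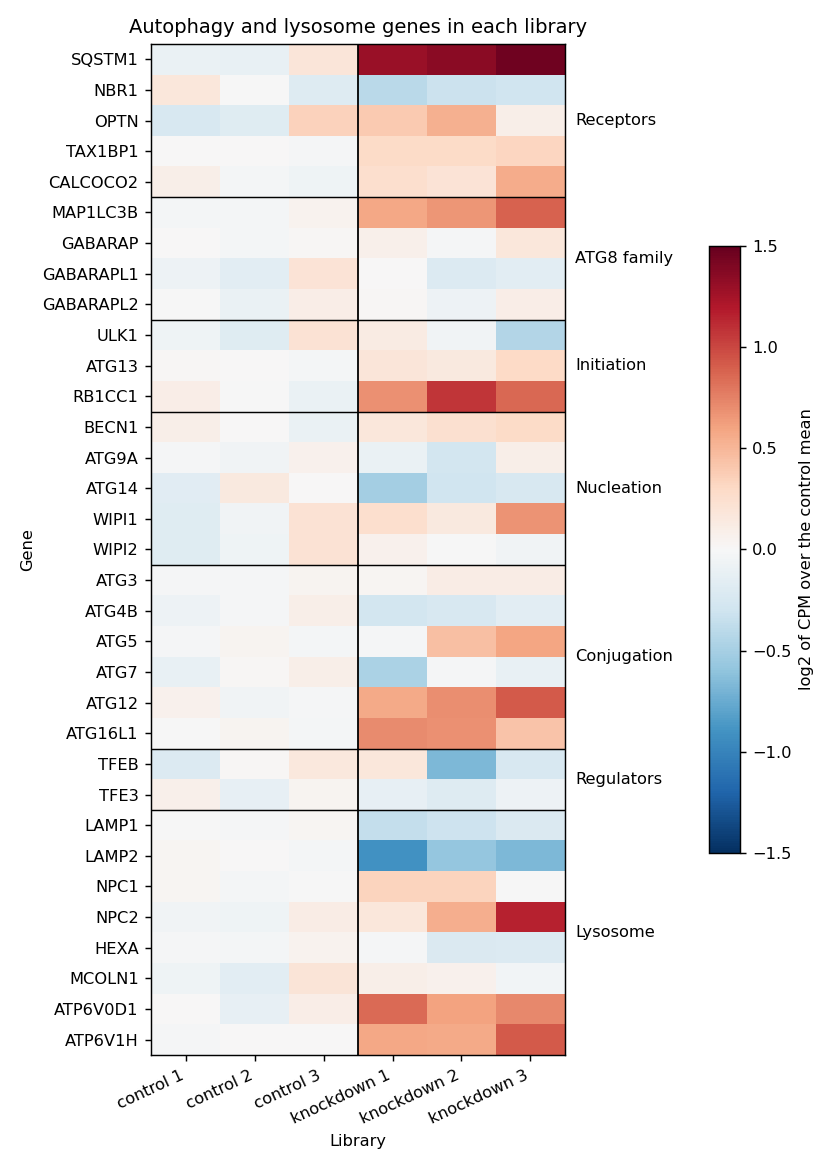
The 33 genes (rows, grouped by role) in each of the 6 libraries (columns), coloured by the log2 of CPM over the control mean. SQSTM1 has the deepest colour in all 3 knockdown libraries, LAMP2 is lower in all 3, and NPC2 is most raised in knockdown replicate 3.

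SQSTM1 dominated these genes by abundance. Divided by the length of all annotated exons of the gene, so that genes can be compared, its level in the control was 187 ± 22.1 CPM per kb (SD, n = 3). GABARAP came next at 108 ± 1.94 CPM per kb. TFE3 (35.6 ± 2.66), NBR1 (32.4 ± 4.03) and GABARAPL2 (31.2 ± 2.12 CPM per kb) followed and did not differ beyond their spread. The lowest were MCOLN1 (3.02 ± 0.399), OPTN (1.92 ± 0.454) and TFEB (1.68 ± 0.212 CPM per kb), and the last 2 of these did not differ beyond their spread. In the knockdown SQSTM1 reached 486 ± 28.0 CPM per kb and GABARAP stayed in second place at 114 ± 7.16 CPM per kb. LAMP2 moved from rank 9 to rank 17 of the 33 on this scale, from 23.4 ± 0.483 to 14.2 ± 1.65 CPM per kb. Exon lengths count every annotated isoform, so the per-length levels are approximate.

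Of the 5 receptors, 3 rose and 1 fell. Among all tested genes 42% changed in either direction, so counts in roles of so few genes, here and below, are descriptions only. SQSTM1 stood at 1342, 1328 and 1628 CPM in control replicates 1 to 3 and at 3527, 3672 and 3950 CPM in knockdown replicates 1 to 3. Every knockdown library was above every control library, and the mean rose 2.59-fold, from 1433 ± 169 to 3716 ± 215 CPM (SD, n = 3 each). On the log2 scale the change was 1.37 (SE 0.10, adjusted p = 1.42e-08). SQSTM1 alone took 0.134% to 0.162% of all reads in the control libraries and 0.349% to 0.383% in the knockdown libraries. The other 32 genes together took 0.288% to 0.299% and 0.302% to 0.309%, so most of the rise in the summed share came from SQSTM1. The gene (ENSG00000161011.19) is at chr5:179806398-179838078 of GRCh38, plus strand. MRNIP, named C5orf45 in the table, lies on the opposite strand and shares 1582 exon bases with SQSTM1. Whether reads were counted by strand is not stated. The MRNIP row averaged 12.2 CPM with si-NC and 7.30 CPM with si-MYLK-AS1. MGAT4B, also on the opposite strand, shares 105 exon bases with SQSTM1 and rose from 43.5 to 56.8 CPM (adjusted p = 0.0142).

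NBR1, a larger receptor that shares ubiquitin and ATG8 binding with SQSTM1, went the other way. Its levels were 307, 271 and 239 CPM with si-NC and 206, 218 and 222 CPM with si-MYLK-AS1. The groups did not overlap, and control replicate 1 was the highest library (log2 fold change -0.34, SE 0.10, adjusted p = 0.00959). Without control replicate 1 the call was lost (log2 fold change -0.25, adjusted p = 0.0751, range 0.000805 to 0.0751 over 14 alternatives). Within a library, where scaling plays no part, there were 4.38, 4.90 and 6.82 SQSTM1 reads for each NBR1 read in the control and 17.2, 16.9 and 17.8 in the knockdown.

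TAX1BP1, a receptor with SKICH and ubiquitin-binding domains, stood at 137, 137 and 135 CPM with si-NC and 166, 167 and 170 CPM with si-MYLK-AS1 (log2 fold change 0.30, SE 0.09, adjusted p = 0.0101). Its libraries were even and the groups apart, with an SD of 1.16 CPM with si-NC and 2.20 CPM with si-MYLK-AS1. CALCOCO2 (also called NDP52), which takes up bacteria and mitochondria, stood at 137, 126 and 123 CPM with si-NC and 154, 148 and 189 CPM with si-MYLK-AS1. The groups did not overlap, knockdown replicate 3 was the highest (log2 fold change 0.34, SE 0.10, adjusted p = 0.0124), and without that library the call was lost (0.24, adjusted p = 0.0587, range 0.00363 to 0.0587 over the alternatives). OPTN, the receptor that works with the kinase TBK1, was low, at 8.34, 8.67 and 12.5 CPM with si-NC and 13.0, 14.3 and 10.5 CPM with si-MYLK-AS1. The groups overlapped (0.35, SE 0.20, adjusted p = 0.163), and the gene passed upward once control replicate 3 was dropped (0.57, adjusted p = 0.0332, range 0.0332 to 0.424 over the alternatives).

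In the ATG8 family, whose lipid-linked forms coat the autophagosome, MAP1LC3B rose and the 3 GABARAP genes did not pass. MAP1LC3A, outside the 33 genes, did not pass either, at 10.6 ± 3.04 and 12.7 ± 2.02 CPM (SD, n = 3 each; 0.24, SE 0.21, adjusted p = 0.376). MAP1LC3C was too scarce to be tested. MAP1LC3B, the gene of the marker protein LC3B, stood at 59.1, 59.1 and 62.8 CPM with si-NC and 90.1, 95.3 and 111 CPM with si-MYLK-AS1, a 1.64-fold rise without overlap (log2 fold change 0.71, SE 0.11, adjusted p = 3.84e-05). MAP1LC3B2, a near-identical copy with which reads may be shared, also rose, by 0.55 on the log2 scale (SE 0.13, adjusted p = 0.00209), from 22.4 ± 1.58 to 32.8 ± 0.360 CPM (SD, n = 3 each). The summed level of both went from 82.7 ± 3.34 to 132 ± 11.3 CPM, a ratio of 1.59. MAP1LC3B (ENSG00000140941.12) is at chr16:87383995-87404779, plus strand.

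GABARAP was at 245, 239 and 247 CPM with si-NC and 257, 241 and 274 CPM with si-MYLK-AS1, and the groups overlapped (0.08, 95% interval -0.09 to 0.25). GABARAPL2 ran from 88.4 to 101 CPM with si-NC and from 90.0 to 102 CPM with si-MYLK-AS1 (0.02, 95% interval -0.18 to 0.21). GABARAPL1 had -0.12 (95% interval -0.34 to 0.11). These intervals leave out the change seen in MAP1LC3B, though the difference between the genes was not itself tested. For each GABARAP read there were 0.241, 0.247 and 0.254 MAP1LC3B reads in the control libraries and 0.351, 0.395 and 0.406 in the knockdown libraries, without overlap.

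**Figure D2:**
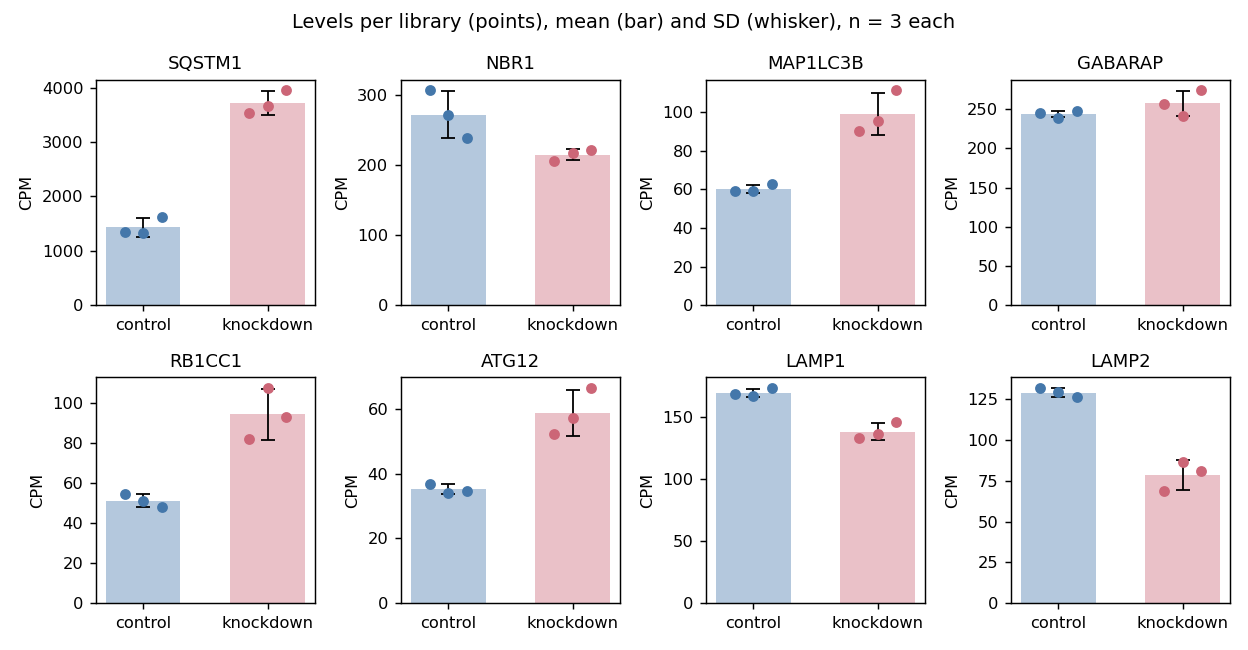
CPM of 8 of the genes in each library (points), with the group mean (bar) and SD (whisker), n = 3 each, on axes that start at 0. SQSTM1, MAP1LC3B, RB1CC1 and ATG12 are higher in all knockdown libraries, NBR1, LAMP1 and LAMP2 lower, and the GABARAP groups overlap.

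Of the ULK1 complex, the scaffold changed and the kinase did not pass. RB1CC1 (FIP200), the large scaffold that holds the complex together, was at 54.7, 51.0 and 48.0 CPM with si-NC and 82.4, 108 and 93.4 CPM with si-MYLK-AS1. Every knockdown library lay above every control library (1.84-fold; log2 fold change 0.88, SE 0.11, adjusted p = 9.34e-06). ATG13, the adaptor between kinase and scaffold, was at 177 to 184 CPM with si-NC and 201 to 224 CPM with si-MYLK-AS1. Its groups did not overlap, yet it fell short of the threshold (0.21, SE 0.09, adjusted p = 0.0590). ULK1 itself was at 89.1, 81.9 and 109 CPM with si-NC and 102, 89.6 and 68.8 CPM with si-MYLK-AS1. The groups overlapped, with knockdown replicate 3 the lowest of the 6 libraries (-0.10, 95% interval -0.37 to 0.16, adjusted p = 0.579).

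None of the 5 genes of membrane nucleation and supply passed the test, against 42% of all tested genes. BECN1, the regulatory core of the lipid kinase complex, was at 133, 126 and 117 CPM with si-NC and 141, 148 and 153 CPM with si-MYLK-AS1. Its groups were apart, and its adjusted p of 0.0502 lay at the threshold (log2 fold change 0.23, SE 0.09). With RLE in place of TMM scaling the adjusted p was 0.0498, and it ran up to 0.127 over the alternatives. ATG14, the subunit that sends this complex to autophagosome formation, had -0.35 (SE 0.15, adjusted p = 0.0669), also without overlap, from 21.5 ± 2.33 to 16.9 ± 1.63 CPM (SD, n = 3 each). It passed downward with upper quartile factors (adjusted p = 0.0484), with no factors (0.0483) and with a stricter filter on low counts (0.0412), and its adjusted p reached 0.270 when a library was left out. The phosphoinositide binders WIPI1 (0.36, SE 0.18, adjusted p = 0.121) and WIPI2 (0.01, SE 0.11, adjusted p = 0.975) and the lipid scramblase ATG9A (-0.09, SE 0.10, adjusted p = 0.502) had overlapping groups.

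In the conjugation machinery the 2 genes that passed were ATG12 and ATG16L1, whose products sit with ATG5 in the complex that places ATG8 proteins on the membrane. ATG12 was at 36.9, 34.1 and 34.7 CPM with si-NC and 52.4, 57.2 and 66.5 CPM with si-MYLK-AS1 (1.67-fold; log2 fold change 0.73, SE 0.12, adjusted p = 0.000103). ATG16L1 was at 25.5, 26.3 and 25.2 CPM with si-NC and 42.0, 41.4 and 34.4 CPM with si-MYLK-AS1 (1.53-fold; 0.62, SE 0.13, adjusted p = 0.000788). Neither gene's groups overlapped. ATG12P1, a pseudogene copy of ATG12, had 29 to 41 reads in the control and 44 to 49 in the knockdown (0.58, SE 0.26, adjusted p = 0.0808). Whether reads are shared between ATG12 and ATG12P1 was not tested.

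ATG5, the third protein of that complex, was at 19.5, 20.3 and 19.3 CPM with si-NC and 19.5, 26.9 and 29.6 CPM with si-MYLK-AS1. Knockdown replicate 1 sat among the controls, and the gene did not pass (0.36, SE 0.16, adjusted p = 0.0762) unless that library was left out (0.52, adjusted p = 0.00998, range 0.00998 to 0.246 over the alternatives). The enzymes of the cascade also missed the threshold. The activating enzyme ATG7 had -0.19 (SE 0.14, adjusted p = 0.279), the conjugating enzyme ATG3 had 0.08 (SE 0.11, adjusted p = 0.577), and the protease ATG4B, which primes and frees ATG8 proteins, had -0.22 (SE 0.11, adjusted p = 0.108). Outside the 33 genes, the related enzymes ATG4A (0.68, SE 0.15, adjusted p = 0.00183) and ATG4C (0.62, SE 0.20, adjusted p = 0.0219) rose. ATG4D (-0.33, SE 0.20, adjusted p = 0.200) and ATG10 (0.17, SE 0.39, adjusted p = 0.754) did not pass. ATG7 shares 1596 exon bases with VGLL4 on the opposite strand, which rose from 53.7 to 78.5 CPM, so part of the ATG7 count may not be its own.

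**Figure D3:**
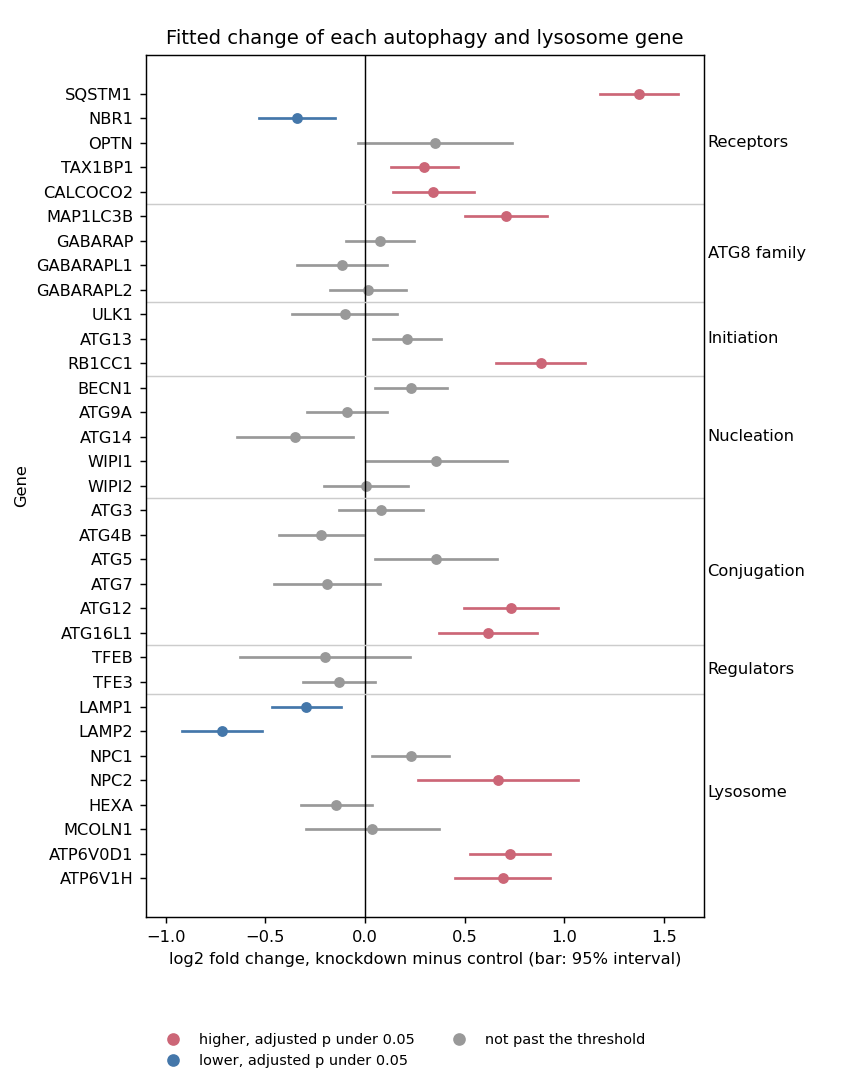
Log2 fold change of each of the 33 genes, knockdown minus control (x axis), with its approximate 95% interval, grouped by role. SQSTM1 at 1.37 lies furthest from 0, LAMP2 at -0.72 is the lowest, and the 5 nucleation genes are all drawn in grey as not past the threshold.

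The transcription factors TFEB and TFE3 did not pass at the transcript level. TFEB was scarce, at 8.23, 9.64 and 10.6 CPM with si-NC and 10.7, 5.97 and 8.05 CPM with si-MYLK-AS1, and the groups overlapped (-0.20, 95% interval -0.63 to 0.23, adjusted p = 0.489). TFE3 was at 161, 139 and 157 CPM with si-NC and 140, 133 and 144 CPM with si-MYLK-AS1 (-0.13, 95% interval -0.31 to 0.05, adjusted p = 0.278). Both factors are controlled mainly through their location in the cell, which transcript counts do not show.

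Lysosomal genes went both ways. The heavily glycosylated membrane proteins LAMP1 and LAMP2 fell. LAMP2 (ENSG00000005893.15) is at chrX:120427827-120469365, minus strand. It was at 132, 129 and 127 CPM with si-NC and 68.7, 86.5 and 80.9 CPM with si-MYLK-AS1, without overlap (log2 fold change -0.72, SE 0.10, adjusted p = 2.55e-05). LAMP1 was at 168, 167 and 173 CPM with si-NC and 133, 136 and 146 CPM with si-MYLK-AS1 (-0.29, SE 0.09, adjusted p = 0.0125). The groups were apart for both genes, but the LAMP1 call was lost without knockdown replicate 1 (adjusted p = 0.0519) or knockdown replicate 2 (0.0575), the highest values over the alternatives, of which the lowest was 0.00503. There were 0.784, 0.776 and 0.731 LAMP2 reads per LAMP1 read in the control libraries and 0.518, 0.635 and 0.555 in the knockdown libraries.

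Both listed subunits of the vacuolar proton pump, which acidifies the lysosome, rose. ATP6V0D1, in the membrane sector, was at 67.7, 61.8 and 72.2 CPM with si-NC and 121, 102 and 111 CPM with si-MYLK-AS1 (1.66-fold; log2 fold change 0.73, SE 0.10, adjusted p = 2.51e-05). ATP6V1H, a regulatory subunit of the catalytic sector, was at 37.8, 38.4 and 38.3 CPM with si-NC and 56.8, 56.5 and 71.9 CPM with si-MYLK-AS1 (1.62-fold; 0.69, SE 0.12, adjusted p = 0.000193). No knockdown library of either gene fell within the control range.

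Among the remaining lysosomal genes, NPC2, the lumenal protein that hands cholesterol to NPC1, was at 30.8, 30.5 and 34.7 CPM with si-NC and 35.9, 46.9 and 71.1 CPM with si-MYLK-AS1. Its knockdown libraries were, relative to their mean, the least even of the genes called, with replicate 1 just above the controls and replicate 3 far above (0.67, SE 0.20, adjusted p = 0.0206). The call was lost when any of the 3 control libraries was left out (adjusted p 0.0652 to 0.0870, with 4.29e-06 the lowest over the alternatives), and without knockdown replicate 3 the change was 0.37. NPC1, the membrane cholesterol exporter, was at 163 to 169 CPM with si-NC and 208, 208 and 165 CPM with si-MYLK-AS1 (0.23, SE 0.10, adjusted p = 0.0723), and it passed without knockdown replicate 3 (0.34, adjusted p = 0.00731, range 0.00731 to 0.262 over the alternatives). HEXA, a subunit of the hexosaminidase that degrades gangliosides, had -0.14 (SE 0.09, adjusted p = 0.217), and the calcium channel MCOLN1 had 0.04 (SE 0.17, adjusted p = 0.884), at 12.0 ± 1.58 and 12.3 ± 0.576 CPM (SD, n = 3 each).

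Of the 20 genes that missed the threshold, 15 had an approximate 95% interval that stayed within a 1.5-fold change in either direction. The intervals of OPTN, ATG5, ATG14, WIPI1 and TFEB, all below 30 CPM in every library, reached beyond 1.5-fold. Groups were apart for all 13 genes that passed and for 4 that did not, namely BECN1, ATG13, ATG4B and ATG14.

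Many lysosomal genes carry the CLEAR element, the site bound by TFEB and TFE3, close to the start of transcription. RefSeq promoter windows (GRCh38.p14, 250 bases before to 50 after the start) were held for 29 of the 33 genes, with more than 1 window for some, and none for ATP6V1H, HEXA, LAMP2 and RB1CC1. They were searched on both strands for the E-box CACGTG, for the CLEAR core TCACGTGA, which contains the E-box, and for TGACNNNGC, the core of the antioxidant response element bound by NRF2, where N is any base. Matches are descriptions of these letters and not evidence of binding.

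The CLEAR core was in 4 of the 39 windows of the 29 genes, those of ATG3, ATP6V0D1, LAMP1 and MCOLN1. Of all 35116 windows 0.980% hold it, and of the 13906 windows of tested genes 1.64%. These 4 did not move together. ATP6V0D1 rose, LAMP1 fell, and ATG3 and MCOLN1 did not pass. The E-box was in 5 of the 39 windows, those of the same 4 genes and of ATG14. It is in 7.26% of all windows and 9.36% of those of tested genes. The antioxidant core was also in 5 of the 39 windows, against 13.3% of all and 14.8% of those of tested genes. These belong to ATP6V0D1, CALCOCO2, MAP1LC3B and NPC2, which rose, and to LAMP1, which fell. NPC2 has a further window without the core. None of the 3 SQSTM1 windows held any of these letters. Bases outside the windows were not searched for any gene, so sites further from the start would be missed.

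The following windows are shown for the genes with the CLEAR core that rose, fell and did not pass, and for MAP1LC3B, with matches to any of the 3 motifs in capitals. They lie at chr16:67481108-67481407 on the minus strand (ATP6V0D1), chr13:113296989-113297288 on the plus strand (LAMP1), chr19:7522374-7522673 on the plus strand (MCOLN1) and chr16:87392086-87392385 on the plus strand (MAP1LC3B).
ATP6V0D1: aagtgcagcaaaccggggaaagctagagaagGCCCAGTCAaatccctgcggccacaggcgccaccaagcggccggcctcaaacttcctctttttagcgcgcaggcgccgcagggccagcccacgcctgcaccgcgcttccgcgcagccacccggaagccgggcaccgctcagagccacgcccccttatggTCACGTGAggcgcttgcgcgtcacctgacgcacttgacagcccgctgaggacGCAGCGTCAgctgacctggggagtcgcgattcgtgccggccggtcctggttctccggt
LAMP1: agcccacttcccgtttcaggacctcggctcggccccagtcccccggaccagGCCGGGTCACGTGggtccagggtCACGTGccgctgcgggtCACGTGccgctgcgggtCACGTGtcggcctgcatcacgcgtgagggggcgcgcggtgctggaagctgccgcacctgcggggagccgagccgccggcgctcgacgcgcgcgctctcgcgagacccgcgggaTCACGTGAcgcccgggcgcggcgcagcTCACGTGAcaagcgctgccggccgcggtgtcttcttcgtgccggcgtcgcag
MCOLN1: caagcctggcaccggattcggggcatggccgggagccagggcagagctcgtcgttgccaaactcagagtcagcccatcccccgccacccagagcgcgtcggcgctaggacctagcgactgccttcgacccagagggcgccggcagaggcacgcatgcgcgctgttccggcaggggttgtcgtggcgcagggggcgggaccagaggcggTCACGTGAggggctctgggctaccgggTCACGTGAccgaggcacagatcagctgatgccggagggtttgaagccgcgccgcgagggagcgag
MAP1LC3B: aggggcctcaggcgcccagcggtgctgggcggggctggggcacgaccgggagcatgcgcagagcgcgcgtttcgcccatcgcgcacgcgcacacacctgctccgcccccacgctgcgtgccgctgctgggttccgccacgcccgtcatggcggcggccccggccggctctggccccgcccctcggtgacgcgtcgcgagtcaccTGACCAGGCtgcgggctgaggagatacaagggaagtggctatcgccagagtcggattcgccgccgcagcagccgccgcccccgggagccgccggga

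The ATP6V0D1 window has its CLEAR core starting 60 bases before the start site, between antioxidant cores that begin 219 and 8 bases before it. LAMP1 has 6 E-boxes. Of these, 4 lie in a cluster that begins 192 to 142 bases before the start, and 2 are CLEAR cores that begin 29 and 2 bases before it. Its antioxidant match begins 199 bases before the start and overlaps the first E-box. MCOLN1 has CLEAR cores that begin 42 and 15 bases before the start and no antioxidant core, and MAP1LC3B has 1 antioxidant core, 46 bases before the start.

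Wider lists of the pathway, which exclude the 33 genes, changed in 41.3% to 48.8% of their tested genes, against 42% of all. From each list the risen and fallen genes with the lowest p are given below, 16 in all with adjusted p of 0.00522 or less. Other genes of these lists carry their own adjusted p. Of 46 tested further autophagy genes, 13 rose and 6 fell, with a median log2 fold change of 0.11. NRBF2, a subunit of the BECN1 complex, rose from 26.7 ± 1.81 to 52.9 ± 4.45 CPM (SD, n = 3 each; 0.99, SE 0.12), and BNIP3, a mitophagy receptor, from 104 ± 3.14 to 175 ± 13.1 CPM (0.75, SE 0.09). NCOA4, the receptor that delivers ferritin to the lysosome, fell from 162 ± 13.1 to 58.4 ± 2.55 CPM (-1.47, SE 0.10). ULK2, the paralogue of ULK1, fell from 67.8 ± 7.06 to 31.8 ± 2.92 CPM (-1.09, SE 0.12), while ULK1 did not pass.

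Of 41 tested lysosomal hydrolases, cofactors and sorting receptors, 13 rose and 7 fell (median -0.0045). The count of risen genes dropped to 7 when knockdown replicate 2 was left out, and to 8 when control replicate 1 or control replicate 2 was left out. Of the sorting receptors, M6PR, which carries mannose 6-phosphate tagged enzymes, rose from 141 ± 2.53 to 215 ± 14.3 CPM (0.61, SE 0.09). Sortilin (SORT1) fell from 103 ± 12.3 to 43.5 ± 5.74 CPM (-1.25, SE 0.12). The scarcer IGF2R, which binds the same tag as M6PR, passed upward close to the threshold (0.75, SE 0.29, adjusted p = 0.0478). It had 21 to 30 reads in the control libraries and 25 to 52 in the knockdown libraries, and its call was not followed over the alternatives. The lysosomal phospholipase PLA2G15 rose (0.82, SE 0.12) and the hyaluronidase HYAL2 fell (-0.60, SE 0.12).

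Of 44 tested genes of the lysosomal membrane and the proton pump, 17 rose and 4 fell (median 0.20). The number that fell was 2 when control replicate 1 or 2, or knockdown replicate 2, was dropped. OSTM1, partner of the chloride transporter CLCN7, fell (-1.13, SE 0.16), as did the chloride transporter CLCN6 (-0.80, SE 0.14). Those with the lowest p among the risen genes were pump subunits, ATP6V0E1 from 57.3 ± 4.32 to 103 ± 12.5 CPM (0.84, SE 0.11) and ATP6V1B2 from 68.1 ± 4.85 to 117 ± 12.3 CPM (0.78, SE 0.11).

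With ATP6V0D1 and ATP6V1H added, 18 genes of the proton pump were tested, of which 9 rose and 2 fell, with a median of 0.38. That is 61.1% in either direction, against 42% of all tested genes, of which 21.3% were higher and 20.7% lower. This grouping was made after the values were seen, so the counts are a description only. In the membrane sector 3 of 7 rose and none fell. In the catalytic sector 6 of 9 rose, among them the catalytic subunit ATP6V1A (0.52, SE 0.12, adjusted p = 0.00188) and the stalk subunit ATP6V1E1 (0.43, SE 0.11, adjusted p = 0.00359). The sector's 1 fallen gene was the scarce ATP6V1G2, at 1.33 CPM in the control (adjusted p = 0.0243). Of the accessory proteins, ATP6AP1 did not pass (-0.01, SE 0.10, adjusted p = 0.953) and ATP6AP2 fell (-0.28, SE 0.09, adjusted p = 0.0232).

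**Figure D4:**
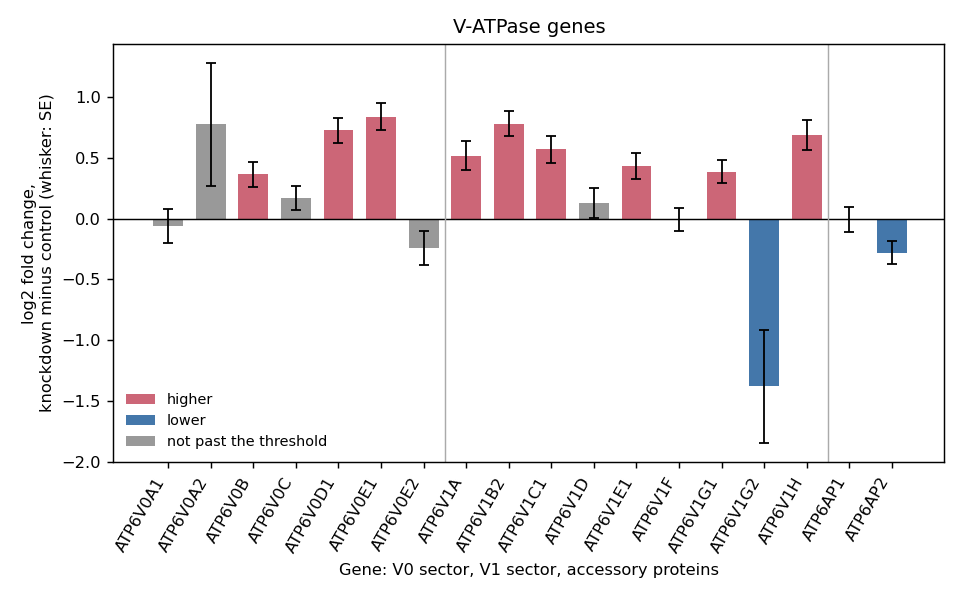
Log2 fold change of the 18 tested proton pump genes, knockdown minus control (bars) with SE (whiskers), in the order membrane sector, catalytic sector and accessory proteins. Red bars passed upward, blue bars downward and grey bars did not pass. ATP6V0E1 at 0.84 and ATP6V1B2 at 0.78 are the tallest red bars, and the scarce ATP6V1G2 is the lowest bar.

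Upstream control of TFEB and of the growth kinase mTORC1 was covered by 33 further tested genes, of which 10 rose and 6 fell (median 0.14). FLCN, the GTPase activator through which mTORC1 holds TFEB and TFE3 in the cytoplasm, rose from 55.3 ± 2.96 to 92.8 ± 0.937 CPM (SD, n = 3 each; 0.75, SE 0.10). RRAGA, a Rag GTPase at the lysosomal surface, rose (0.58, SE 0.10). The AMPK subunit PRKAG2 (-0.68, SE 0.13) and the mTORC1 inhibitor TSC2 (-0.41, SE 0.11) fell. Other AMPK subunits went both ways. PRKAA2 (0.80, SE 0.15, adjusted p = 0.000489) and PRKAB2 (0.66, SE 0.13, adjusted p = 0.000474) rose, and PRKAG1 fell (-0.31, SE 0.11, adjusted p = 0.0357). PRKAA1 (adjusted p = 0.338) and PRKAB1 (adjusted p = 0.0612) did not pass. The number of these 33 further genes that fell was 3 without knockdown replicate 1 or knockdown replicate 2.

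**Figure D5:**
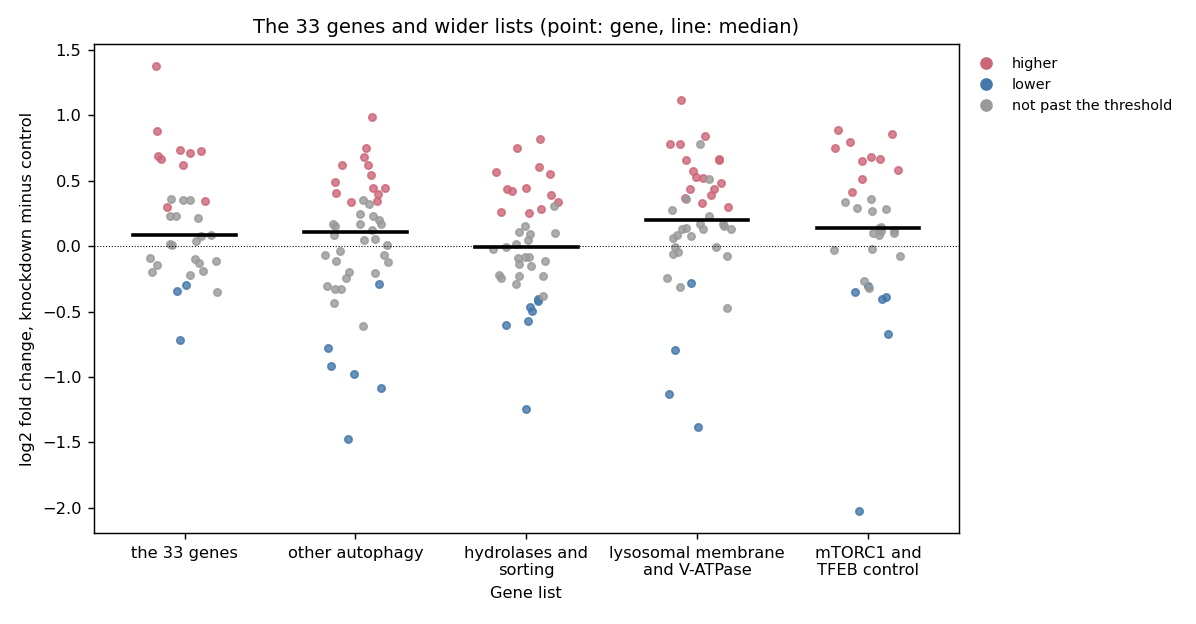
Log2 fold change, knockdown minus control, of every tested gene (points) in the 33 autophagy and lysosome genes and in 4 wider lists, with the median of each list (line). Red points passed upward and blue points downward, and the medians lie between -0.0045 and 0.20.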

How the data were processed

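RNA was sequenced from 3 control and 3 MYLK-AS1 knockdown libraries of PC9/GR, made from Trizol-extracted total RNA with an Ion Proton kit (per the labels' protocols). Raw read counts per gene symbol, as deposited by the authors, were used, and GRCh38 is the build named by the submitters' processing notes. Not given in the sources used here: the aligner, counting tool, annotation release, strand setting, and the sequence, dose and time of each siRNA. Groups and repeat numbers came from the column names, which are the sample titles.

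The fit used edgeR 4.0.16 in R 4.3.3 (filterByExpr, TMM, robust quasi-likelihood fit, two-sided F test, group as the sole term) on all 6 libraries, with Benjamini-Hochberg adjustment over 15391 genes. CPM use TMM-scaled library sizes. The SE is the log2 fold change divided by the square root of F, and 95% intervals are normal ones from that SE, both approximate. Counts limit precision: 3 reads correspond to 0.274 to 0.410 CPM. The fit was tested on simulated counts of 15391 genes with known changes. It recovered 20 of 67 genes changed by 0.5 on the log2 scale, 55 of 67 changed by 1 and 63 of 66 changed by 2. Of its 145 calls, 7 were false. Small changes were thus mostly missed there. Far fewer genes were changed in the simulation than were called in the data, so these shares do not carry over directly.

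The 33 genes, the wider lists and the promoter motifs were all chosen with earlier results of these data known. All 33 genes are named, and from each wider list the 2 genes up and 2 down with the lowest p among those past the threshold at a mean of 10 CPM or more. Other genes were named after their values were seen: the overlapping genes, the pump subunits ATP6V1A, ATP6V1E1, ATP6V1G2, ATP6AP1 and ATP6AP2, IGF2R, and the members of marker lists. So were the autophagy genes ATG4A, ATG4C, ATG4D, ATG10, ATG101, MAP1LC3A and MAP1LC3C, and the AMPK subunits other than PRKAG2. Calls of these other genes were not followed over the alternatives. Among list symbols, 2 were matched through an older symbol. Exon lengths and overlaps came from GENCODE release 29 and promoters from RefSeq (GRCh38.p14). Protein comparisons were not run. The alternatives were other scalings (RLE, upper quartile, none), no filter or one asking for 5 CPM in at least 3 libraries, other tools (DESeq2 1.42.0 and limma-voom in limma 3.58.1), each library left out in turn, and a block for the repeat number.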

Additional observations from a re-analysis of the deposited data

How the results depend on the processing

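All 14 alternatives kept the direction of the 13 genes called, and 9 of the 13 stayed past the threshold in every one; NBR1, CALCOCO2, NPC2 and LAMP1 were lost in 1 to 3 fits that left out a library, as given above. The count of the 33 genes that rose was 9 to 11 and that fell 2 to 3 when each library was left out, and 10 to 11 and 3 to 4 under the other settings. Leaving out a library moved the number of risen hydrolases and sorting receptors (13) to between 7 and 11, of fallen membrane and pump genes (4) to between 2 and 4, and of fallen control genes of mTORC1 and TFEB (6) to between 3 and 6. Signs turned for 4 genes near 0, none of which passed. GABARAPL2 had -0.012 with upper quartile factors, -0.014 with no factors, -0.018 with the stricter filter, and -0.034 to 0.064 when a library was left out. WIPI2 had -0.021, -0.022 and -0.028 under those 3 settings and -0.080 to 0.13 when a library was left out. ULK1 ran from -0.23 to 0.043 and MCOLN1 from -0.040 to 0.15 when a library was left out. The cause was not tested.

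With the repeat number as a block, 10 of the 33 genes rose and 3 fell, and 3321 and 3200 of all genes. Same-numbered libraries deviated from their group means with correlations of -0.0492, 0.0598 and 0.0472, so the numbers were not taken as pairs. Depth limits the scarce genes most: TFEB, OPTN and MCOLN1 had 150 reads or fewer in every library.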

Other observations

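The bases AGCTTA, which an earlier analysis of these data had set beside lower levels, were in the longest annotated 3' UTR of 9 of the 33 autophagy and lysosome genes (27.3%), against 29.6% of 11579 tested genes with a 3' UTR of at least 50 bases. They were in 3 of the 10 genes that rose (MAP1LC3B, NPC2 and TAX1BP1), in LAMP2 among the 3 that fell, and in ATG14, ATG3, ATG5, GABARAPL1 and HEXA among the 20 that did not pass. SQSTM1, NBR1 and LAMP1 do not hold them. Among all tested genes with such a 3' UTR, 35.0% of those that fell held the word and 26.5% of those that rose. The median 3' UTR had 1419 bases in those that fell and 1864 bases in those that rose. The word was chosen on these data and the shares are not adjusted for the length of the 3' UTR.

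CD68, a lysosomal membrane glycoprotein of the LAMP family that is also used as a macrophage marker, rose from 193 to 285 CPM (log2 fold change 0.56), opposite to LAMP1 and LAMP2. Of the other myeloid markers in its list, CD14 fell (-0.71, adjusted p = 0.000909) and ITGAM did not pass (-0.30, adjusted p = 0.300), and the leukocyte marker PTPRC had no read. CD68 was named after its value was seen.

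Several of the 33 genes share exon bases with a neighbour on the opposite strand. Of 13 such neighbours tested, 7 rose, 2 fell and 4 did not pass. Of all tested genes, 21.3% were higher and 20.7% lower. Those that rose include MGAT4B opposite SQSTM1, SLC35A5 opposite ATG3 and VGLL4 opposite ATG7. Of the others that rose, AP3S1 shares 378 with ATG12 and went from 33.7 to 47.3 CPM. JAZF1 shares 415 with TAX1BP1 and went from 7.50 to 12.5 CPM. PSME3 shares 300 with BECN1 and went from 173 to 282 CPM, and FBXO31 shares 150 with MAP1LC3B and went from 44.7 to 58.4 CPM. The 2 that fell were MRNIP, opposite SQSTM1, and CCDC3, which shares 147 with OPTN and had 2.53 and 1.11 CPM. Those that did not pass were THAP4 opposite ATG4B, HARBI1 opposite ATG13, RMC1 (C18orf8 in the table) opposite NPC1, and ISCA2 opposite NPC2. On the same strand, AC120057.2 shares 691 exon bases with GABARAP and AC068946.2 shares 1833 with ATG9A, and neither was among the tested rows. Nor were AC009690.1, which shares 617 with HEXA, and AC008878.2, which shares 169 with MCOLN1. Same-strand neighbours that were tested were MIR4709 and PNPLA6. MIR4709 shares 72 with NPC2 and did not pass. PNPLA6 shares 6 with MCOLN1 and fell from 75.9 to 54.4 CPM (adjusted p = 0.003). The part of these overlaps in the counts of the 33 genes was not tested.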
